A study of Mus musculus with 9 samples.

Results

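The 9 libraries of mouse CD8+ T cells, which destroy virus-infected and tumour cells, fell into 2 sets, here called side A and side B, chosen from the second principal component of their batch-corrected counts. Side A holds 4 of the 9 libraries (NT 1, NT 3, NT 4 and LSD1i 3) and side B the other 5 (NT 2, NT 5, LSD1i 1, LSD1i 2 and LSD1i 4). The cells had been activated for 72 h with interleukin 2 at 100 U/mL, either untreated (NT, 5 libraries) or with an inhibitor of LSD1 present (LSD1i, 4 libraries), and their RNA was sequenced in bulk. LSD1, the product of Kdm1a, removes methyl groups from histone H3 within corepressor complexes. No strain, age or dose of inhibitor is used here, and no source used here says whether the numbered replicates were different animals or different cultures. The p-values therefore measure only how far these libraries spread, and that spread may be technical. Because the libraries were put on their sides by their own gene expression, every difference between the sides is a description and carries no test. Only LSD1i against NT, which the split did not use, was tested.

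A naive CD8+ T cell that meets antigen leaves rest, grows and divides rapidly while it builds the cytotoxic and cytokine programs of an effector cell. Cells that stay closer to a naive or memory state keep transcription factors such as BACH2, FOXO1 and TCF1, and divide and secrete less. In dividing cells the core histones are made in S phase from clustered, intron-poor genes whose mRNAs mostly end in a stem-loop in place of a poly(A) tail, so their level follows DNA synthesis.

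The second component carried 28.1% of the variance in log2 CPM, read counts relative to the library's total. NT 1 scored 29.4, NT 4 20.8, NT 3 12.8 and LSD1i 3 3.62, all on side A. On side B, NT 2 scored 0.621, LSD1i 1 −12.1, NT 5 −15.4, LSD1i 4 −16.2 and LSD1i 2 −23.6. The sides thus meet between LSD1i 3, just inside side A, and NT 2, just outside it, with 3.001 units between them, and NT 2 lies above zero with the libraries of side A.

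The split was proposed as independent of LSD1 inhibition, and the scores do not show that it is. On the second component NT averaged 9.66 ± 17.6 (SD, n = 5) and LSD1i −12.1 ± 11.5 (n = 4), a difference of −21.7 with a two-sided exact permutation p = 0.07937 (adjusted over 3 components p = 0.119; the smallest p that the 126 arrangements allow is 0.00794). The first component, with 33.8% of the variance, averaged −12.7 ± 14.7 in NT and 15.9 ± 13.4 in LSD1i (exact permutation p = 0.03175, adjusted p = 0.09524). Side A has 3 NT libraries to 1 LSD1i library and side B 2 to 3, so treatment was a term in the fit that gave every side difference below.

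**Figure D1:**
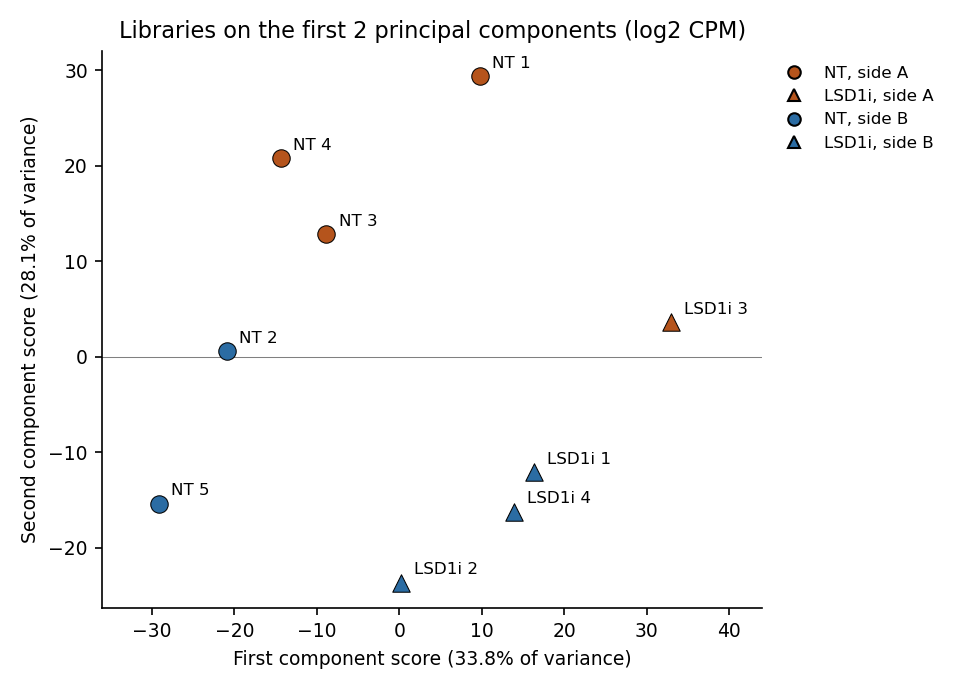
Score of each of the 9 libraries on the first principal component (horizontal axis, 33.8% of variance) and the second (vertical axis, 28.1%); circles are NT, triangles LSD1i, orange side A and blue side B. NT 1, NT 4 and NT 3 lie highest, LSD1i 3 (3.62) and NT 2 (0.621) lie next to each other across the cut, and the first component places NT mostly left and LSD1i right.

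The raw table and the batch-corrected table give NT 1, NT 2, LSD1i 1 and LSD1i 2 crossed treatment names, and the names here are those of the batch-corrected table. The labels used here do not settle which names are right. If the raw names are, those 4 libraries change treatment, and every treatment difference, treatment-adjusted side difference and ratio within NT or LSD1i below would change. Under the names used here, Klrc1, picked for its strong treatment difference, was at 36.5 and 22.7 CPM in NT 1 and NT 2. It was at 120 and 79.1 CPM in LSD1i 1 and LSD1i 2. The other libraries ran from 22.8 to 34.2 CPM in NT and stood at 135 and 70.9 CPM in LSD1i. In this gene the 4 libraries thus lay nearest the treatment they are named for here, though how batches were corrected is not known. Batches recovered from the data (replicates 1 and 2 against 3 to 5) divide side A 1 to 3 and side B 3 to 2, so that among replicates 1 and 2 side A is NT 1 alone, and among LSD1i libraries it is LSD1i 3 alone. Raw totals were 17803528 to 29245278 reads on side A and 15163983 to 21931812 on side B. The ribosomal RNA precursor Rn45s took 13.3% of the raw reads of NT 1, the deepest library, and 1.66% to 2.87% in the others. The labelled cell type was checked on its markers, with Cd8a at 338 to 499 CPM in every library and Cd4, Foxp3, Ms4a1, Csf1r, Adgre1, Ncr1 and Fcer1a at 0 to 5 counts. The whole marker lists overlapped between the sides, the 18 listed B cell and MHC class II genes summing to 248 to 392 CPM on side A and 194 to 399 on side B, and the 24 myeloid and dendritic genes to 67.1 to 111 and 58.4 to 115. The chain of the T cell receptor complex Cd3e ranged from 31.6 CPM in NT 4 to 107 in NT 1.

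Of 11981 genes tested, 684 (5.71%) were higher in every library of side A than in any of side B, and 783 (6.54%) were higher in every library of side B. Only 46 genes (0.384%) were also at least 2-fold higher on side A after the treatment term, and 13 (0.109%) on side B. The median gene differed by 0.03 on the log2 scale. These counts moved with single libraries. The side A count fell to 19 without NT 1 and to 23 without NT 5, and was 71 to 82 without NT 2, NT 3, NT 4, LSD1i 1 or LSD1i 3. The side B count was 8 without NT 1 and 6 without NT 5, and 30, 27 and 44 without NT 3, LSD1i 1 and LSD1i 3.

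Genes of dividing cells led side B. Among genes without overlap whose log2 CPM averaged 3 or above, the largest difference was that of H2afx, which encodes histone H2A.X, the variant phosphorylated beside DNA breaks. Its level was 175, 368, 282 and 188 CPM in NT 1, NT 3, NT 4 and LSD1i 3, and 481, 804, 410, 550 and 371 CPM in NT 2, NT 5, LSD1i 1, LSD1i 2 and LSD1i 4. The sides nearly touched, at NT 3 and LSD1i 4, and NT 5 stood highest. The side difference, A minus B on the log2 scale with treatment as a term, was −1.23. Hist1h2ad, a core histone H2A gene, was at 40.9, 90.1, 71.9 and 39.6 CPM on side A in the same order and at 95.4, 156, 91.3, 132 and 91.4 CPM on side B (log2 difference −1.08). NT 3 was again the side A library closest to side B. Hist1h3g, a histone H3 gene, was at 66.4, 113, 89.05 and 72.1 CPM against 139, 183, 125, 157 and 140 CPM (log2 difference −0.89). Hist1h4b and Hist1h4a, both histone H4 genes, Hist1h2af and Hist1h2bm followed with log2 differences of −0.84, −0.84, −0.85 and −0.83. With H2afx, 7 of the 15 leading genes of side B were thus histone genes. Copies of these genes are near-identical in sequence, so how reads were shared among them is uncertain.

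All 34 tested replication-dependent histones were lower on side A than on side B, with a median log2 difference of −0.58, and 14 of them did not overlap (6.54% of all genes). Histone mRNA made up 0.870% to 1.57% of the counts on side A and 1.37% to 2.18% on side B. As the mean log2 level of the list relative to the mean of all libraries, LSD1i 3 stood at −0.60, NT 1 at −0.51, NT 4 at −0.11 and NT 3 at 0.08, and LSD1i 1 at 0.01, LSD1i 4 at 0.16, NT 2 at 0.18, LSD1i 2 at 0.35 and NT 5 at 0.46. NT 3 overlapped side B, and the low end was made by 1 untreated and 1 treated library. In bulk RNA, fewer cells in S phase and less histone RNA per cell cannot be told apart.

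The promoters of these genes are shown because the CCAAT box is a common element of S-phase histone promoters. Of the 6 leading core histones of side B, the 4 printed are those with more than 1 copy in these bases, while Hist1h4a has 1 and Hist1h4b has 0. The sequences are the 250 bases upstream of the start, 5′ to 3′ along the gene's strand, from RefSeq on GRCm38.p6, which is not the build of the deposited counts (mm9). All 4 lie on the plus strand, Hist1h2ad at chr13:23574131-23574380, Hist1h3g at chr13:23535168-23535417, Hist1h2af at chr13:23533625-23533874 and Hist1h2bm at chr13:21721794-21722043. Capitals mark CCAAT on either strand (CCAAT or ATTGG).
Hist1h2ad: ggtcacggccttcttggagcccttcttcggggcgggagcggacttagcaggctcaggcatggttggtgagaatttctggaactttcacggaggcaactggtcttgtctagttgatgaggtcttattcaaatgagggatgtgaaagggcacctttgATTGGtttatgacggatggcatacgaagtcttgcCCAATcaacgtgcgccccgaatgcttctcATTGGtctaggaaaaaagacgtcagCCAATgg
Hist1h3g: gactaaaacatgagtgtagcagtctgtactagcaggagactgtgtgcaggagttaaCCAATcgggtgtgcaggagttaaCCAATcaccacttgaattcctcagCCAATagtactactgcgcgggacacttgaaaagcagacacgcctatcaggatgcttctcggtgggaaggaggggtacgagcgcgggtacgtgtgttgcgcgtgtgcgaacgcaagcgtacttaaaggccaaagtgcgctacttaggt
Hist1h2af: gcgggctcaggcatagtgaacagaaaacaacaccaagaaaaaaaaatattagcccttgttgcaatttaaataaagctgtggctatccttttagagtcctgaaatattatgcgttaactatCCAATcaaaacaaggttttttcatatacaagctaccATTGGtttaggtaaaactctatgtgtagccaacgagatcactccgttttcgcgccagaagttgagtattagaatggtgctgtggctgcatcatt
Hist1h2bm: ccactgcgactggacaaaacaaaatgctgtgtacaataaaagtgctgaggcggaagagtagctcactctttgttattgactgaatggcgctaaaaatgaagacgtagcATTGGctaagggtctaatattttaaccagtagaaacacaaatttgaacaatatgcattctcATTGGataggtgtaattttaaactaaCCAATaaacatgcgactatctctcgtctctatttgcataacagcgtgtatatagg
The first holds 4 copies, the second 3, the third 2 and the fourth 3. Searched on both strands over 250 bases before to 50 after the start, CCAAT was present in 31 of 34 histone promoters (91.2%), in 19 of 23 promoters of mitosis genes (82.6%) and in 21 of 35 promoters of DNA replication genes (60%), against 37.4% of all 32851 promoters. It was present in 6 of 11 promoters matched for the leading genes of side B and in 5 of 15 for those of side A. Those of side B were Hist1h2ad, Hist1h3g, Hist1h2af, Hist1h2bm and Hist1h4a, named above, and Kpna2. Tuba4a, Mxd3, Pros1 and Dna2 had none, so the side B share rests mostly on histones. The E2F core TTTGGCG was present in 8 of 35 DNA replication promoters and in 1.56% of all. A match is only these letters in this window.

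DNA replication genes were also lower on side A. Of 35 tested, 33 were lower on side A, with a median log2 difference of −0.28. Of the 35, 10 did not overlap, against 6.54% of all genes. Rrm2, the small subunit of ribonucleotide reductase, was at 86.0, 119, 97.9 and 96.3 CPM in NT 1, NT 3, NT 4 and LSD1i 3 and at 168, 209, 128, 144 and 141 CPM in NT 2, NT 5, LSD1i 1, LSD1i 2 and LSD1i 4. Every library of side B was above every library of side A, with NT 5 highest, and the log2 difference was −0.75. Ccne2, the cyclin that drives entry into S phase with CDK2, differed by −0.71 and Fen1, the flap nuclease of Okazaki fragments, by −0.61, both without overlap. Ccne1 differed by −0.74 with overlap. Among the leading genes of side B, the helicase Pif1 (−0.91) and the nuclease and helicase Dna2 (−0.84) also act at replicating DNA.

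Mitosis genes were lower on side A for 23 of 27 members, with a median log2 difference of −0.25. Of the 27, 13 did not overlap, against 6.54% of all genes. Ccnb1, the mitotic cyclin B1, was at 71.7, 94.3, 84.6 and 76.9 CPM on side A and 113, 147, 96.9, 119 and 101 CPM on side B. The closest libraries were NT 3 and LSD1i 1, and the log2 difference was −0.57. Aurka, the spindle kinase Aurora A, differed by −0.53 and Cdk1, the kinase that starts mitosis, by −0.50 without overlap, while Cdc20, an activator of the anaphase-promoting complex, differed by −0.58 with overlap. Kpna2, an importin (−0.87), and Tuba4a, an alpha-tubulin (−0.94), were among the leading genes of side B.

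**Figure D2:**
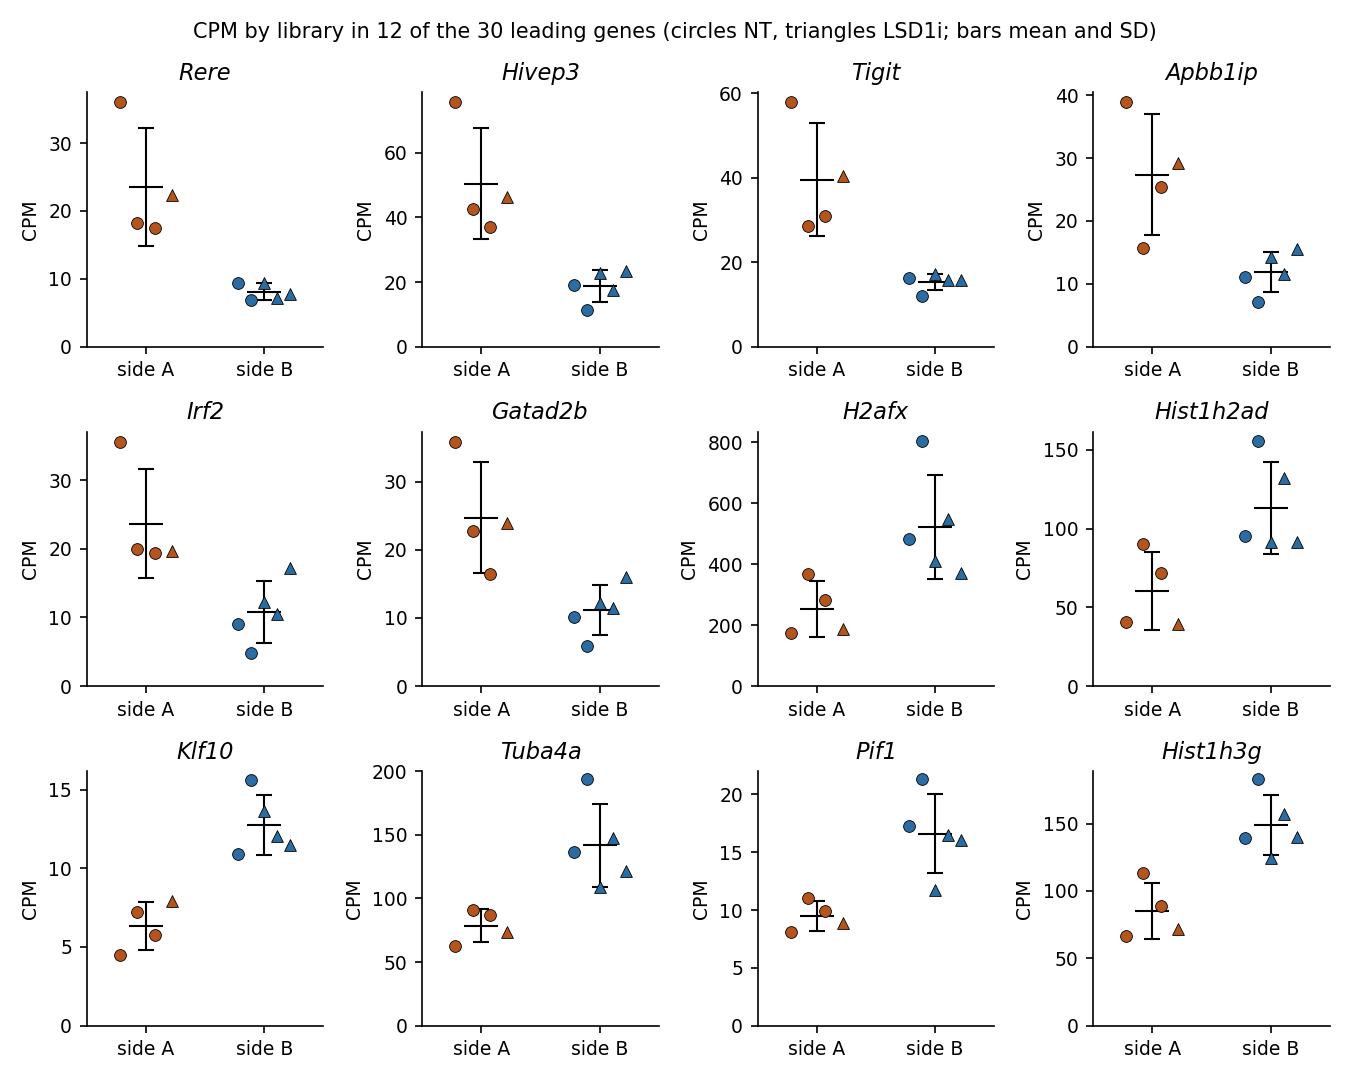
CPM in each library for 6 leading genes of side A and 6 of side B; circles are NT, triangles LSD1i, and bars give the mean and SD of each side (n = 4 and n = 5), on axes that start at 0. In all 12 genes the sides do not overlap, because the genes were chosen that way; NT 1 is the highest library in the 6 side A genes and NT 5 in the 6 side B genes, and the single LSD1i triangle on side A lies with its NT neighbours.

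The 15 leading genes of side A had varied roles. Rere, a corepressor of the atrophin family, was at 36.1, 18.2, 17.5 and 22.4 CPM in NT 1, NT 3, NT 4 and LSD1i 3 and at 9.43, 6.81, 9.38, 7.22 and 7.75 CPM in NT 2, NT 5, LSD1i 1, LSD1i 2 and LSD1i 4 (log2 difference 1.53). NT 1 was far above the others of its side. Hivep3, a large zinc-finger protein, was at 75.6, 42.6, 37.0 and 46.5 CPM against 19.2, 11.3, 22.7, 17.4 and 23.4 CPM (log2 difference 1.53). Srrm2, a scaffold of nuclear speckles where splicing factors gather, was the most abundant of the 15, at 808, 431, 481 and 599 CPM against 266, 186, 309, 262 and 291 CPM (log2 difference 1.24). In each of these genes LSD1i 3 lay within the range of the untreated libraries of side A.

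The other leading genes of side A included Gatad2b, a subunit of the NuRD complex (1.34), Kmt2e, the SET-domain protein MLL5 (1.26), and Qser1 (1.25). They included Ccnk, the cyclin partner of the transcription kinases CDK12 and CDK13 (1.25), and the transcription factors Irf2 (1.37) and Nfat5, which responds to osmotic stress (1.18). Signalling genes were Apbb1ip, the adaptor RIAM that links Rap1 to integrins (1.38), Ppp2r2a, a regulatory subunit of protein phosphatase 2A (1.28), and Peak1, a pseudokinase (1.17). Vamp2, a SNARE protein of vesicle fusion, and R3hdm2 closed the list at 1.17 and 1.18. Outside the division genes, side B was led by Klf10, a zinc-finger factor induced by TGF-beta (−0.99), Mxd3, a MAX partner (−0.89), Pros1, the anticoagulant protein S (−0.84), and Ly6a, the surface antigen Sca-1 (−0.83).

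Both strata of treatment held the leading genes in the same direction. That direction was fixed in advance, because these genes were chosen for sides that do not overlap, and only the sizes are informative. Within NT (3 libraries against 2) the log2 ratio of mean CPM was 1.503 for Rere, 1.45 for Tigit, −1.22 for H2afx and −0.89 for Hist1h2ad. Within LSD1i, where side A is LSD1i 3 alone, the ratios were 1.41, 1.29, −1.24 and −1.40. Without NT 1 the fitted log2 difference was 1.30 for Rere and 1.20 for Tigit.

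Among memory and naive-like genes 22 of 27 were higher on side A, with a median log2 difference of 0.35. Of the 27, 2 did not overlap, a share near the 5.71% of all genes. These were Tcf7, which encodes TCF1 (0.49), and Actn1 (0.45), both named after their values were seen. Bach2, a repressor that holds back effector differentiation, was at 158, 95.5, 78.3 and 160 CPM in NT 1, NT 3, NT 4 and LSD1i 3 and at 51.8, 29.3, 86.4, 62.8 and 95.0 CPM in NT 2, NT 5, LSD1i 1, LSD1i 2 and LSD1i 4. The sides overlapped through NT 4, LSD1i 1 and LSD1i 4, and the log2 difference was 1.27. Foxo1, which drives genes of T cell homing and survival, was at 97.7, 57.03, 36.9 and 96.8 CPM against 35.6, 36.5, 43.5, 35.3 and 37.1 CPM (log2 difference 1.03). NT 4 lay within side B. The list level was 0.30 in LSD1i 3 and 0.19 in NT 1 but −0.11 in NT 4, against −0.36 in NT 5 and 0.10 in LSD1i 1, so it did not order the libraries by side. The median was between 0.26 and 0.41 with any 1 library left out, but 0.16 without the treatment term.

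Inhibitory receptors and the factors tied to them were higher on side A for 12 of 15 members (median log2 difference 0.27). The list level of NT 4 (−0.09) lay below those of LSD1i 1 (0.003) and LSD1i 4 (0.05), so it did not order the libraries by side. Without overlap, 2 members were higher on side A (Tigit and Tox), where 5.71% of all genes were so. On side B it was 1 member (Cd200r1, near the limit of detection and named after its values were seen), where 6.54% of all genes were so. Tigit, which competes with the costimulatory receptor CD226 for shared ligands, was at 58.0, 28.7, 31.0 and 40.4 CPM on side A and 16.1, 11.97, 17.2, 15.8 and 15.7 CPM on side B. The sides lay far apart, LSD1i 3 with the untreated libraries of side A, and the log2 difference was 1.42. Tox, a factor of the exhausted T cell state, was low throughout, at 11.2, 8.48, 9.35 and 6.67 CPM against 4.94, 3.78, 5.24, 3.15 and 3.40 CPM (log2 difference 1.01). Nt5e, the ectoenzyme CD73, differed by 0.94 and Nr4a3, an orphan nuclear receptor induced by antigen receptor signals, by 0.83, both with overlap.

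Cytokines and chemokines ran the other way, with 18 of 20 lower on side A and a median log2 difference of −0.48. Only 1 member did not overlap, a share near the 6.54% of all genes. That member was Il2, the T cell growth factor, at 0.686, 1.80, 0.846 and 1.35 CPM on side A against 2.31, 3.07, 2.70, 5.26 and 4.49 CPM on side B (log2 difference −1.42). Ifng, the main cytokine of CD8+ effector cells, was at 379, 689, 598 and 189 CPM in NT 1, NT 3, NT 4 and LSD1i 3 and at 777, 1403, 337, 562 and 327 CPM in NT 2, NT 5, LSD1i 1, LSD1i 2 and LSD1i 4. These ranges overlapped widely over all libraries, but not within NT or within LSD1i. The log2 difference was −1.03 with the treatment term and −0.55 without it. The log2 ratio of mean CPM was −0.97 within NT and −1.11 within LSD1i, where side A is LSD1i 3 alone. Il13 and Il24 differed by −1.30 and −2.21 with overlap. The list level was 0.75 in NT 5 and −0.55 in LSD1i 3, the 2 extremes of all libraries.

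Other T cell programs differed less. For the genes without overlap named below, the shares over all genes were 5.71% higher on side A and 6.54% higher on side B. Of 15 cytotoxic effector genes 9 were lower on side A (median −0.10), 1 of them without overlap (Nkg7, −0.21, named after its values were seen). They included Prf1, the pore former perforin (−0.64), and 6 were higher, such as Klrk1, the receptor NKG2D (0.47). Of 19 targets of interleukin 2 and STAT5 signalling 14 were lower on side A (median −0.13), including Socs3, a feedback inhibitor of cytokine receptors, which did not overlap (−0.82), and Lif (−0.91), while Il12rb2, a chain of the interleukin 12 receptor, was higher (0.92). Activation and costimulation genes had a median of 0.08, with the costimulatory receptor Cd28 (0.69) and the shared cytokine receptor chain Il2rg (0.37) higher on side A without overlap and Tnfrsf8, the receptor CD30, lower with overlap (−1.51). Immediate early genes were higher on side A for 19 of 26 members (median 0.18), led by Egr1 (0.94), which did not overlap. Their list level was 0.005 in NT 3 and −0.02 in NT 4, below 0.14 in LSD1i 1 of side B. Type I interferon-stimulated genes had a median of 0.02, with 19 higher, 14 lower and none without overlap.

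Of 15 tested effector transcription factors 8 were higher and 7 lower on side A. Without overlap, 1 was higher on side A (Runx3) and 1 on side B (Batf). These shares were near the 5.71% and 6.54% of all genes. Runx3, which establishes the CD8+ cytotoxic lineage, was at 126, 72.0, 75.6 and 112 CPM on side A and 46.9, 30.4, 63.2, 48.6 and 62.8 CPM on side B (log2 difference 1.13). Batf, an AP-1 factor that cooperates with IRF4 in effector cells, was at 26.7, 35.1, 31.9 and 31.0 CPM against 47.6, 60.7, 39.6, 54.4 and 48.0 CPM (log2 difference −0.73). Neither gene overlapped.

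**Figure D3:**
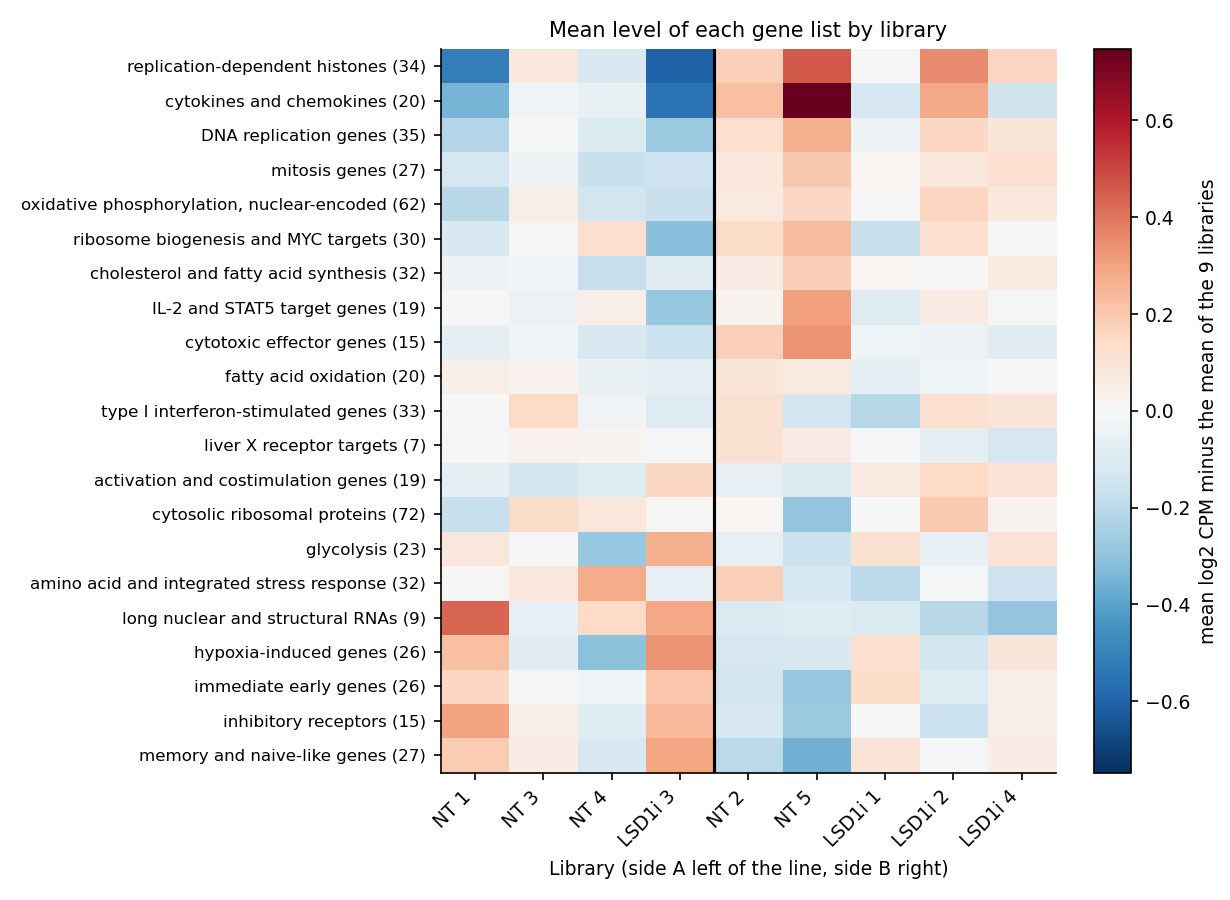
Mean log2 CPM of each gene list in each library minus its mean over the 9 libraries, in colour (red higher, blue lower), with the number of tested members in brackets; side A is left of the black line. Histones, DNA replication and cytokines are lowest in NT 1 and LSD1i 3 and highest in NT 5. NT 3 of side A lies near the middle for these lists, and NT 4 is the lowest library for mitosis, cholesterol synthesis and glycolysis.

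Lists of growth and metabolism differed in direction: oxidative phosphorylation, ribosome biogenesis and cholesterol synthesis were lower on side A by their medians, as the division genes were, while glycolysis, hypoxia and amino acid response genes were higher. Nuclear-encoded oxidative phosphorylation genes were lower on side A for 58 of 62 members, with a median log2 difference of −0.24. Of these genes, which are short (median exon length 1011 bases), 14 were without overlap, where 6.54% of all tested genes and 12.6% of those in the shortest of 10 length classes were so. Ndufa4, a subunit of the respiratory chain, was at 87.8, 111, 101 and 101 CPM on side A and 129, 155, 131, 152 and 140 CPM on side B (log2 difference −0.50). The differences were small but in this gene no library crossed. Sdhb and Ndufb7, subunits of complexes II and I, each differed by −0.42 without overlap, and cytochrome c (Cycs) by −0.42 with overlap.

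Ribosome biogenesis genes and MYC targets were lower on side A for 26 of 30 members (median −0.22), yet none of the 30 was without overlap. Rrp9, a component of the U3 snoRNP, Srm, which makes spermidine, and Nop56, a core protein of box C/D snoRNPs, differed by −0.58, −0.53 and −0.52. Cytosolic ribosomal protein genes leaned the other way in number, 65 of 72 being higher on side A with a median of 0.10 and none without overlap. Their largest differences were negative, Rpl30 at −0.83 and Rpl34 at −0.72, and Rps29 was at 0.26. Pseudogene copies may make counts of ribosomal protein genes uncertain, which was not tested. The median of the ribosomal protein list was −0.16 in a fit within replicates 1 and 2, where side A is NT 1 alone, and −0.01 without NT 5.

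Genes of cholesterol and fatty acid synthesis were lower on side A for 24 of 32 members (median −0.20), 8 without overlap. Over all genes 6.54% were lower on side A without overlap and 5.71% higher. Of the 8 members higher on side A, 1 was without overlap, Srebf2, the transcription factor that turns on cholesterol synthesis, at 308, 234, 223 and 267 CPM on side A against 190, 159, 201, 167 and 179 CPM on side B (log2 difference 0.55). Tm7sf2, a sterol reductase (−0.52), lay on the opposite side with overlap, as did the fatty acid elongase Elovl6 (−0.42) without overlap. Glycolysis genes were slightly higher on side A for 17 of 23 (median 0.11, none without overlap). They were led by Pfkfb3, which raises glycolytic flux (0.63), and Slc2a3, a glucose transporter (0.43). Yet NT 4 of side A had the lowest glycolysis list level of all libraries (−0.28). Hypoxia-induced genes were higher on side A for 20 of 26 (median 0.17), with a median of 0.08 without NT 1. Their list level was also lowest in NT 4 (−0.30), and NT 3 (−0.08) lay below LSD1i 1 (0.12) and LSD1i 4 (0.09) of side B. Of the 26, 1 was without overlap, a share not above the 5.71% of all genes. Genes that respond to amino acid shortage and to integrated stress signals were higher for 25 of 32 (median 0.13). Of the 32, 2 were without overlap, a share near the 5.71% of all genes. The median of this list was −0.0016 without NT 5 and −0.26 fitted within replicates 1 and 2. Liver X receptor targets (4 of 7 higher, median 0.06) and fatty acid oxidation genes (10 of 20 higher, median −0.01) leaned little to either side.

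Within treatments and within replicate sets the division genes, cytokines and memory genes kept their direction. All these sets reuse the libraries from which the split was chosen, and they share libraries, so their agreement is not independent support. The ratios within replicate sets have no treatment term and mix side with treatment. In replicates 1 and 2 they set NT 1 against NT 2, LSD1i 1 and LSD1i 2. For histones the median log2 ratio was −0.49 within NT, −0.76 within LSD1i, −0.69 within replicates 1 and 2 and −0.49 within replicates 3 to 5, against 0.03, −0.00, −0.02 and −0.02 over all tested genes. For DNA replication it was −0.25, −0.38, −0.28 and −0.26, and for mitosis −0.28, −0.24, −0.25 and −0.30. For cytokines it was −0.46, −0.30, −0.43 and −0.33, and for memory genes 0.32, 0.21, 0.26 and 0.21. The ribosomal proteins did not keep it, with 0.18, −0.06, −0.24 and 0.21, nor did the activation genes, with 0.09, 0.03, −0.11 and 0.08, or the interferon-stimulated genes, with 0.11, −0.06, −0.04 and 0.05. Nor did the hypoxia, amino acid and liver X receptor lists, so that 15 of the 21 lists whose medians are given here kept 1 sign in all 4 sets. Over all 39 lists compiled, 18 changed sign.

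**Figure D4:**
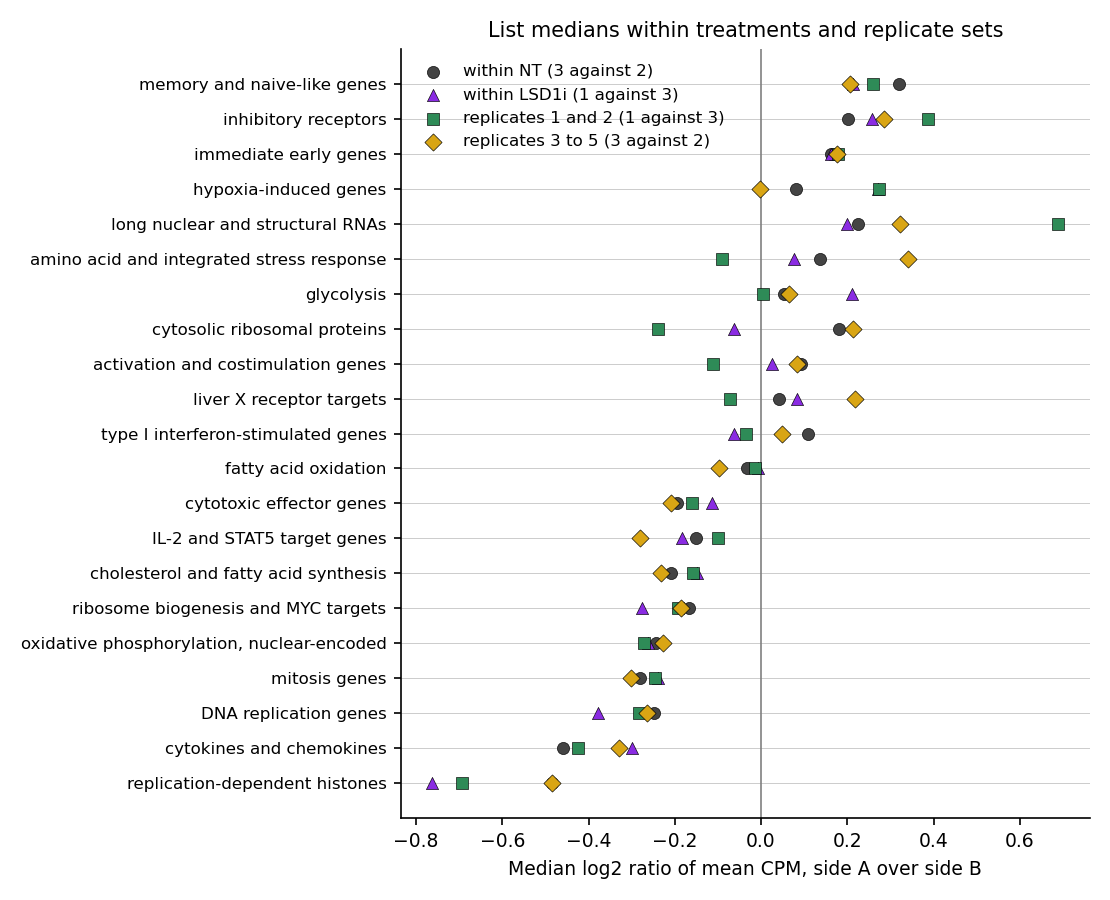
Median log2 ratio of mean CPM, side A over side B, over the tested members of each list, computed within NT, within LSD1i, within replicates 1 and 2 and within replicates 3 to 5. Histones lie between −0.76 and −0.49 and memory genes between 0.21 and 0.32 in all 4 sets, while ribosomal proteins run from −0.24 to 0.21.

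The length of the transcript moved with the side across the whole transcriptome. Among 11899 tested genes with an exon length, the median log2 side difference ran from −0.16 in the shortest of 10 length classes (55 to 1247 bases) to 0.20 in the longest (6955 bases or more). The share of genes higher on side A without overlap ran from 0.84% to 19.2% over the same classes, and the share higher on side B from 12.6% to 1.18%. Across genes, which are not independent replicates, Spearman's rho between length and side difference was 0.329. The 15 leading genes of side A had a median exon length of 7325 bases (919 to 14811) and those of side B 1327 bases (397 to 4122). Tigit, at 919 bases, was the shortest on side A. NT 1 was the deepest library and had the largest Rn45s share. The other libraries of side A had 17803528 to 21962195 raw reads and an Rn45s share of 1.96% to 2.25%, within or close to the ranges of side B. The list of long nuclear and structural RNAs also holds Rn45s, Rpph1, Rmrp, Snhg1 and Gas5. On side A 8 of its 9 members were higher (median 0.16), including Malat1 (0.71, with overlap) and Xist (1.16, without overlap). The part of depth, of the Rn45s share and of these RNAs in the length pattern was not tested.

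**Figure D5:**
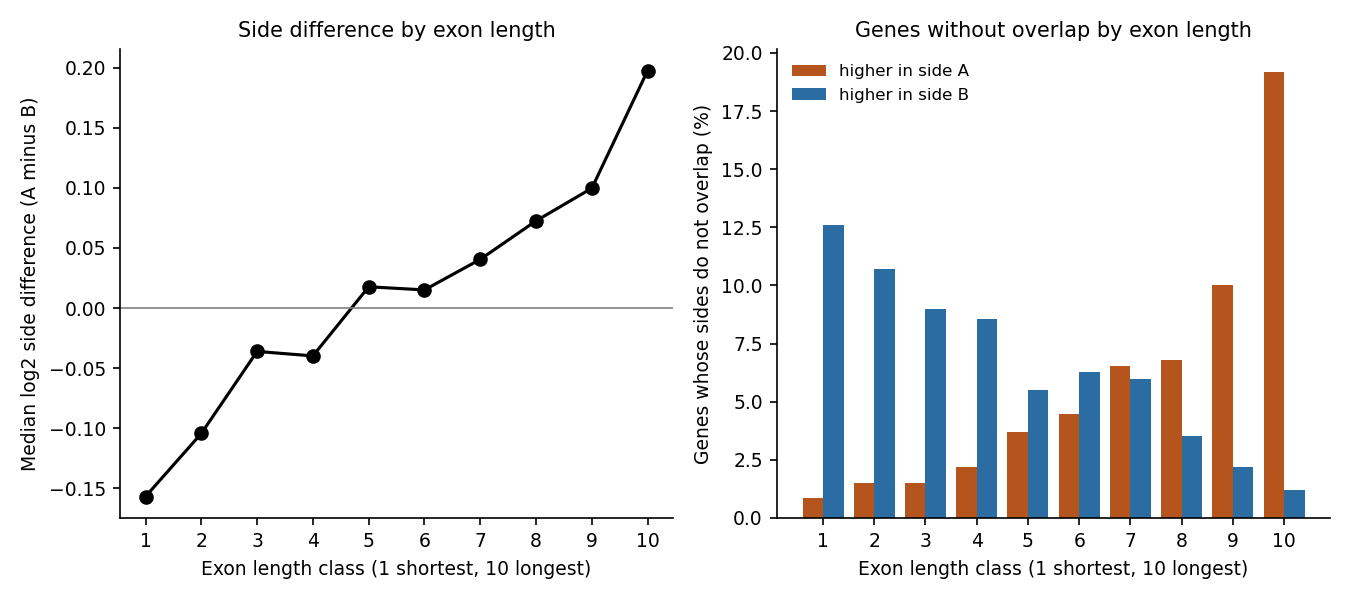
Left, median log2 side difference (A minus B) of the genes in each of 10 exon length classes, from shortest (1) to longest (10); right, percentage of genes in each class whose sides do not overlap, higher on side A (orange) or side B (blue). The median runs from −0.16 to 0.20, and the side A share from 0.84% to 19.2%.

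With the median of a gene's own length class subtracted, a step chosen after the length pattern was seen, the list medians were −0.44 for histones, −0.30 for DNA replication, −0.26 for mitosis and −0.33 for cytokines. They were −0.30 for ribosome biogenesis, −0.18 for cholesterol and fatty acid synthesis and 0.25 for inhibitory receptors. Oxidative phosphorylation went from −0.24 to −0.12 and memory genes from 0.35 to 0.21. Long nuclear and structural RNAs were at 0.26 and ribosomal proteins at 0.23.

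The test of treatment asked which genes LSD1 inhibition changed once the side was a term. The targeted gene itself, Kdm1a, did not pass (log2 fold change of LSD1i over NT −0.03 ± 0.09 (SE), adjusted p = 0.863, edgeR's quasi-likelihood test with Benjamini-Hochberg adjustment over all genes). Its RNA does not check the inhibitor, which acts on the protein. Of 11981 genes, 727 (6.07%) passed, 428 higher and 299 lower in LSD1i, against 258 and 139 without the side term. Since the side term was taken from the same counts, it leaves too little spread behind, and these p-values are too small. The counts were 245 and 86 without NT 5 and 144 and 64 without LSD1i 3. Without NT 1 the higher count was 683, and the lower count was 156 without LSD1i 1 and 143 without LSD1i 4.

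None of the 30 leading genes of the sides passed for treatment in edgeR's test, with adjusted p-values of 0.226 to 0.989 on side A and 0.188 to 0.872 on side B. The choice of these genes favours that outcome, because sides that each mix NT and LSD1i rarely stay apart where treatment differs strongly. It does not show that treatment leaves them alone. No tested histone, DNA replication, mitosis, oxidative phosphorylation, cholesterol and fatty acid synthesis, glycolysis or ribosomal protein gene passed either, with the same limit on what that shows. Treatment calls did occur in the T cell state lists. Over all 11981 genes 428 rose and 299 fell (6.07% together). Of 20 cytokines and chemokines 2 rose and 8 fell, of 27 memory genes 7 rose and 3 fell, and of 24 homing and chemokine receptors 8 rose and 3 fell. Some other state lists held fewer calls. Of 19 IL-2 and STAT5 targets 0 rose and 2 fell, and of 19 activation genes 2 rose and 0 fell. Of 33 type I interferon-stimulated genes 0 rose and 2 fell, and of 27 interferon-gamma-induced genes 1 rose and 0 fell. Markers of other cells differed with treatment too: the mean level of the listed B cell and class II antigen presentation genes, in log2 CPM minus their mean over the 9 libraries, was −0.30 to −0.05 in the NT libraries and 0.08 to 0.44 in the LSD1i libraries. Of the 9 tested members 2 rose and 2 fell, and Cd74, the invariant chain of MHC class II, rose by 1.56 ± 0.16 (log2, SE, adjusted p = 0.000218, edgeR), while Ms4a1, a defining B cell marker, stayed at 0 to 3 counts. Their part in the treatment calls was not tested.

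Several members carried both a side and a treatment difference. Ifng fell by 1.47 ± 0.25 (SE) on the log2 scale in LSD1i (adjusted p = 0.00561, edgeR), and Nt5e rose by 1.58 ± 0.19 (adjusted p = 0.00061). Rora, a nuclear receptor that was 1.05 higher on side A, rose by 0.88 ± 0.19 (adjusted p = 0.0178). Kit, the stem cell factor receptor listed among mast cell markers, was 1.28 higher on side A and rose by 1.496 ± 0.31 in LSD1i (adjusted p = 0.0165). Without the side term Ifng, Rora and Kit did not pass (adjusted p = 0.155, 0.589 and 0.297), nor did Nt5e (0.0639). Klrc1, which encodes the receptor NKG2A, and Tgm2, a transglutaminase, changed by 1.998 ± 0.15 and −1.85 ± 0.16, and both passed in all 17 other settings tried.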

How the data were processed

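RNA of 9 libraries of mouse CD8+ T cells was sequenced, 5 NT and 4 LSD1i. The authors deposited raw counts as whole-number read counts and, for the same 24391 genes, estimated counts that had been batch-corrected. Per the submitters' processing notes STAR, featureCounts, edgeR and mm9 were used. Their versions and roles were not given in the sources used here, nor were the strand setting and the way batches were corrected. Reads of antisense or overlapping genes therefore cannot be told apart, and near-identical families (histones, ribosomal proteins) are uncertain. The authors' own comparison table was not used here. Both tables' columns were mapped by name, with 0 columns left unmapped and 0 rows without a gene name. Libraries were matched between tables by their zero genes (0 mismatches, at least 1336 for the next best). Within a group, chi-square per degree of freedom was at least 7.43, so no library was counted as a repeat of another.

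Batch-corrected counts, rounded, were fitted in edgeR 4.0.16 (R 4.3.3) with side and treatment as terms (6 residual degrees of freedom, TMM scaling, low-count filter by group with minimum count 10 and minimum total 15, Benjamini-Hochberg threshold 0.05). CPM is relative to the TMM-adjusted library size, and errors of CPM are SDs over libraries. Components were computed from log2 CPM with a prior count of 2, genes centred and not scaled. The side coefficient is described, never tested. A gene without overlap has every CPM of 1 side above every CPM of the other. List level is a mean log2 CPM, list median a median side coefficient over the tested members. Ratios within treatments or replicate sets use mean CPM plus 0.5, with no treatment term. Exon length is the merged exon length of the GENCODE mouse annotation, matched by symbol for 99.3% of tested genes. Promoter sequences are RefSeq's on GRCm38.p6, matched by symbol or older symbol, and H2afx has no sequence here.

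Named genes are the 15 with the largest side coefficient in each direction, without overlap and with mean log2 CPM at 3 or above, and in each list up to 4 members with the largest coefficients (mean log2 CPM 1 or above). The split, the members and the lists were chosen with earlier results of these data known. The fit was tried on simulated data in which the sides were fixed in advance. That trial cannot show how much choosing the sides from the counts shrinks the p-values. Alternatives were DESeq2 1.42.0, limma 3.58.1, other filters, tables, terms, thresholds, a replicate block and leaving out each library. Arranging the 9 libraries in every way gave the exact permutation p-values. Some members of the lists are not reported here by name.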

Additional observations from a re-analysis of the deposited data

Results flagged for a closer look

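In a group of 4 or 5 libraries, chance marks about 1 group in 20 as holding a library far from the others, and 10 of the 120 groups examined held one. In 6 of the leading genes LSD1i 3, the only treated library of side A, stood apart from the other LSD1i libraries, which the choice of those genes favours. It was at 22.4 CPM for Rere (7.22 to 9.38 in the other 3), 40.4 CPM for Tigit (15.7 to 17.2), 598.9 CPM for Srrm2 (262 to 309), 27.6 CPM for R3hdm2 (10.3 to 11.996), 17.5 CPM for Vamp2 (5.67 to 7.56) and 69.5 CPM for Hist1h2af (130 to 137). NT 1 stood apart from the other NT libraries in the share of raw reads taken by Rn45s, 13.3% against 1.96% to 2.87%, and by the nuclear RNA Neat1, 0.0300% against 0.0113% to 0.0158%. The list level of IL-2 and STAT5 targets was 0.31 in NT 5 against −0.04 to 0.04 in the other NT libraries, and that of cytosolic ribosomal proteins was 0.20 in LSD1i 2 against 0.00 to 0.03 in the other LSD1i libraries.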

How the results depend on the processing

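The split was not stable as a component. The gap between the sides on the second component, as a percentage of the score range and negative where the sides overlap, was 5.66, −58.7 with genes scaled to unit variance and −29.1 with raw counts of the matched libraries and batch means removed. It ranged from −39.3 (without LSD1i 3) to 16.9 (without NT 2) when 1 library was left out, and was negative in 6 of 9 such cases. The counts of genes at least 2-fold apart without overlap (46 higher on side A, 13 on side B) became 83 and 20 with no low-count filter, 195 and 111 at 1.5-fold, 451 and 125 within replicates 1 and 2, and 95 and 63 within replicates 3 to 5. Side B alone had 2 genes where the mean log2 CPM was 3 or above and 40 in raw counts with the batch as a term. Leaving out 1 library gave 19 to 82 on side A and 6 to 44 on side B. The treatment counts (428 and 299) became 853 and 678 with no low-count filter and 258 and 139 without the side term. The lower count was 131 where the mean log2 CPM was 3 or above, 150 in raw counts with the batch as a term and 481 with DESeq2. Leaving out 1 library gave 144 to 683 higher and 64 to 446 lower.

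The replicate numbers did not pair the libraries, since deviations of same-numbered NT and LSD1i libraries correlated at −0.0871, 0.232, 0.0853 and −0.299 and no LSD1i library was closest to its own number. With the replicate block, 24 genes were higher on side B and 42 and 6 passed for treatment. The medians with the block were −0.093 for ribosome biogenesis, −0.091 for glycolysis, 0.15 for memory and 0.16 for activation. They were 0.062 for immediate early genes, 0.35 for long nuclear and structural RNAs and −0.069 for fatty acid oxidation. The side difference of Il24 turned to 0.29 with the block.

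List medians that moved beyond the spread between libraries were −0.26 for cytotoxic genes and 0.14 for liver X receptor targets with no low-count filter, 0.22 for the latter where the mean log2 CPM was 3 or above, −0.049 for fatty acid oxidation in raw counts with the batch as a term, and −0.10 for ribosome biogenesis and 0.16 for memory without the treatment term. Fitted within replicates 1 and 2, where side A is NT 1 alone, they were −0.16 for ribosomal proteins, 0.47 for memory and 0.50 for inhibitory receptors. In that fit they were −0.089 for activation, −0.23 for cytotoxic genes, 0.34 for immediate early genes and −0.17 for interferon-stimulated genes. Long nuclear and structural RNAs were at 0.80, hypoxia at 0.40, the amino acid response at −0.26, liver X receptor targets at −0.0998 and fatty acid oxidation at −0.12. Within replicates 3 to 5 the medians were −0.19 for cytotoxic genes, −0.28 for IL-2 and STAT5 targets and 0.33 for long nuclear and structural RNAs. There they were 0.34 for the amino acid response, 0.21 for liver X receptor targets and −0.068 for fatty acid oxidation. With the exon length class subtracted they were −0.12 for oxidative phosphorylation, 0.21 for memory, 0.12 for activation and −0.041 for liver X receptor targets. Leaving out 1 library moved activation (0.039 to 0.10), cytotoxic genes (−0.22 to −0.053), the amino acid response (−0.0016 to 0.24) and fatty acid oxidation (−0.069 to 0.026). The cause of these shifts was not tested. The medians of histones, DNA replication, mitosis, cholesterol synthesis and cytokines kept their direction and moved by less than that spread in every setting run.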

Other observations

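A few list members outside the programs described above also separated the sides, named by the same rule and given as values. Per1, a clock and glucocorticoid-induced gene, was at 70.03, 41.9, 39.7 and 57.4 CPM in NT 1, NT 3, NT 4 and LSD1i 3 and at 27.9, 16.6, 32.1, 25.7 and 38.8 CPM in NT 2, NT 5, LSD1i 1, LSD1i 2 and LSD1i 4 (log2 difference 1.06). The sides met between NT 4 and LSD1i 4. Rgs2, an inhibitor of G-protein signalling, was 1.07 higher on side A without overlap. Itga4, the integrin chain that binds VCAM1, was at 169, 111, 129 and 91.0 CPM against 82.7, 61.4, 65.6, 59.3 and 68.1 CPM (log2 difference 0.76). Slc7a1, a transporter of cationic amino acids, was 0.56 higher on side A without overlap, and Sdf2l1, a chaperone of the endoplasmic reticulum, was 0.76 lower without overlap. None of these 5 genes passed for treatment in edgeR's test, with adjusted p-values of 0.323 for Per1, 0.738 for Rgs2, 0.235 for Itga4, 0.954 for Slc7a1 and 0.358 for Sdf2l1. Picking genes that separate the sides favours that outcome here too.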
